A study of Homo sapiens with 6 samples.

Results

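The genes described here build the desmosome and the neighbouring contacts of epithelial cells: the desmosomal cadherins DSC2, DSC3 and DSG2, the plaque proteins DSP, PKP2, PKP3 and JUP, and the adhesion proteins CDH1, EPCAM and CLDN7. These 10 genes of the 18417 named on the array were chosen by family and on measured values, namely the differences of DSC2 and DSC3 between the HCT116 lines on these arrays, so the differences between those lines are given below as a description and were not tested. Earlier results of these data were also known when the 10 genes and the other gene lists below were chosen. All 10 were found by gene symbol, each on 1 probe set except EPCAM, which had 2.

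Total RNA of 6 cultures was measured, each on 1 array. HCT116-p53KO is a derivative, described in the labels as p53-deficient, of the human colon carcinoma line HCT116. Each was transfected for 48 h with NRF3 siRNA or with control siRNA. The third line, H1299, came from a non-small cell lung carcinoma, and its cells stably expressed NRF3 or GFP from a plasmid after G-418 selection. The sources used here do not give the plasmid's promoter, the number of clones behind each line or the number of siRNAs. NRF3, encoded by NFE2L3, is a transcription factor of the CNC family that binds DNA as a partner of small MAF proteins.

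Desmosomes are spot-like junctions in which the extracellular parts of desmogleins and desmocollins bind those of the next cell. Their tails are held by plakoglobin (JUP) and plakophilins, and desmoplakin (DSP) ties this plaque to keratin filaments, which gives epithelia their mechanical strength. E-cadherin (CDH1) does the comparable work in adherens junctions through actin, claudins such as CLDN7 form tight junctions, and EPCAM is an epithelial surface glycoprotein that associates with CLDN7. Loss of this set is a usual feature of cancer cells in a mesenchymal state.

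Levels are RMA log2 intensities, on which a difference of 1 is 2-fold. Values under 6 are low on this scale, and sizes of differences there are uncertain. Single arrays per group leave differences within a line without replicates, and so few arrays limit all precision. Each array averages a whole culture, so fewer cells expressing a gene and less RNA per cell cannot be told apart. Median intensities over all probe sets were 6.05 to 6.08 in H1299 and 6.95 to 7.002 in the HCT116 family. H1299 is therefore set against the HCT116 family by the rank of a gene within its own array, apart from the marker counts below. NFE2L3 went with its labels, at -1.55 with NRF3 siRNA in HCT116-p53KO, -2.35 in HCT116 and 2.02 with the NRF3 plasmid in H1299. Of 10 measured p53 target genes, all 10 were lower on the HCT116-p53KO array of both pairs, and 9 of them reached 6 on an array of each pair. At 1.5-fold, 8 of these 9 were lower with NRF3 siRNA (4.75% of all genes) and 7 with control siRNA (3.45%). Epithelial markers (EPCAM, CDH1, KRT8, KRT18, KRT19 and CLDN4) were at 6 or more in 6 of 6 cases on every HCT116-family array and in 2 of 6, KRT8 and KRT18, on both H1299 arrays. Of 6 colon markers 3 or 4 reached 6 on the HCT116-family arrays, with CDX2 at 8.39 to 8.69, while VIL1 and CDH17 stayed under 6. In H1299, 2 of them reached 6 with NRF3 and 3 with GFP, so this count hardly separates the lines.

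RefSeq promoter windows were found for 6 of the 10 genes. Those of the desmosomal cadherins and of DSP, among which DSC2, DSC3 and DSP differ by 2-fold or more below, are shown here as the 250 bases that precede each start site, read 5′ to 3′ on the gene's strand on GRCh38.p14. Capitals mark the only searched motif found in them, the E-box CACCTG or its reverse complement CAGGTG, which ZEB and SNAI repressors can bind. DSC2 has 2 starts, at chr18:31102422-31102671 and chr18:31101261-31101510 on the minus strand, and DSC3 has 1, at chr18:31042743-31042992 on the minus strand. The windows of DSG2 and DSP lie on the plus strand at chr18:31497927-31498176 and chr6:7541421-7541670.
DSC2, first start: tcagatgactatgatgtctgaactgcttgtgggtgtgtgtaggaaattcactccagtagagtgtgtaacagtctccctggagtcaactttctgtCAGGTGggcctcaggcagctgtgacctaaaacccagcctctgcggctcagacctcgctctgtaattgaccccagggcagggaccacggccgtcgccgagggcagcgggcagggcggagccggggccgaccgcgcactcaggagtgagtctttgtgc
DSC2, second start: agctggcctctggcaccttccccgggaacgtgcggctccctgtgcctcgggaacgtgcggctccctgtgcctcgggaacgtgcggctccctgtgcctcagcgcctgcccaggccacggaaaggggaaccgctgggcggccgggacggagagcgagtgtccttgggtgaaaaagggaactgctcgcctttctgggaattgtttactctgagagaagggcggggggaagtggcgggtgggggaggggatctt
DSC3: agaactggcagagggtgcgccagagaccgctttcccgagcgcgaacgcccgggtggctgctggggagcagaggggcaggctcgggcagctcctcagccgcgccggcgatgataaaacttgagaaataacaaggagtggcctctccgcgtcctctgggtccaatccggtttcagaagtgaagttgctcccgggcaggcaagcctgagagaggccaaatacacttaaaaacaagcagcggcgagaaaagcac
DSG2: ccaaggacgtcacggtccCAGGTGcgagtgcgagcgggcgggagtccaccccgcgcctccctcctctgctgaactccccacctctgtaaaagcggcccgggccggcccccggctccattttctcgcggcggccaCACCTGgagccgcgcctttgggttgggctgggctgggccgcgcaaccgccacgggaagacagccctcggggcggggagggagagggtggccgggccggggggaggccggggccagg
DSP: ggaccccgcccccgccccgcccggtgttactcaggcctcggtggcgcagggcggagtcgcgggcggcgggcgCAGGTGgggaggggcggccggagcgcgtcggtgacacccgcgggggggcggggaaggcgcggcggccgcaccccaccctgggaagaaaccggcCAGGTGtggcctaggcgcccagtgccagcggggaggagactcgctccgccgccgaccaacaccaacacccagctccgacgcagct

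The E-box was present 1 time in the first DSC2 window, 2 times in that of DSG2 and 2 times in that of DSP, and 0 times in the other DSC2 window and in that of DSC3. Searched on both strands, it occurred in 17.5% of 35116 such windows. The antioxidant response element core TGACNNNGC, which NRF factors bind with small MAF proteins, occurred in 10.9% of windows, the grainyhead motif AACCNGTT in 1.49% and the AP-1 motif TGANTCA in 6.57%. None of these 3, of which the first and last can overlap, was in the 5 windows shown. Of the windows not shown, 1 of CLDN7 held TGACNNNGC 1 time, the other held the E-box 4 times, and 1 of the 2 windows of JUP held the E-box 2 times. A match or its absence describes only the letters of the window.

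The first comparison set the HCT116-p53KO line against its parent. The desmocollins carried the difference: DSC2 and DSC3, which lie next to each other on chromosome 18, were both about 3-fold lower in HCT116-p53KO with either siRNA. DSC2 (chr18:31058840-31102421, GRCh38.p14), the desmocollin of simple and stratified epithelia, stood at 8.63 with NRF3 siRNA and 8.62 with control siRNA in HCT116-p53KO, against 10.13 and 10.23 in HCT116. That is 2.83-fold lower with NRF3 siRNA and 3.06-fold lower with control siRNA. DSC3 (chr18:30989365-31042742), a desmocollin of the basal layers of stratified epithelia, stood at 6.13 and 5.94 in HCT116-p53KO, against 7.81 and 7.56 in HCT116, or 3.19-fold and 3.08-fold lower. For both genes the 2 HCT116-p53KO arrays lay well below the 2 HCT116 arrays, and arrays of the same line differed by at most 0.25.

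Only these 2 of the 10 genes were 2-fold lower, with either siRNA, beside 1.35% of all genes with NRF3 siRNA and 1.30% with control siRNA, and 0 were 2-fold higher (background 0.557% and 0.195%). At 1.5-fold, 2 were lower with NRF3 siRNA (background 4.75%) and 4 with control siRNA, DSG2 and CDH1 besides (background 3.45%), and 0 were higher (background 5.60% and 0.868%). Since the family was chosen on this contrast, nothing is read from these counts. DSG2 (chr18:31498177-31549008), the most widely expressed desmoglein, stood at 9.79 with NRF3 siRNA and 9.88 with control siRNA in HCT116-p53KO, against 10.06 and 10.66 in HCT116. Its difference was -0.78 with control siRNA but -0.27 with NRF3 siRNA. JUP (chr17:41754609-41786711), which serves both desmosomes and adherens junctions, stood at 10.57 and 10.45 in HCT116-p53KO, against 11.06 and 10.87 in HCT116. PKP2, a plakophilin of simple epithelia and heart, stood at 9.16 and 8.89, against 9.64 and 9.25. The 2 HCT116-p53KO arrays lay below both HCT116 arrays for 5 of the 10 genes, DSC2, DSC3, DSG2, PKP2 and JUP, which is a separation that 19.8% of all 14148 genes tested also showed in this direction.

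The other members differed less between the lines or in unlike ways. CDH1 stood at 9.001 and 9.48 in HCT116-p53KO, against 9.38 and 10.09 in HCT116, so that the groups overlapped. EPCAM (chr2:47369311-47387020) stood at 11.18 and 11.04, against 10.91 and 11.42, and was thus higher in HCT116-p53KO with NRF3 siRNA (0.27) and lower with control siRNA (-0.38). The first of these was smaller, at 0.13 to 0.16, with its probe sets averaged, after repeated quantile normalization or after loess correction. DSP, PKP3 and CLDN7 differed by -0.03 to 0.18 over both pairs. CLDN7 (chr17:7259903-7263213), whose gene overlaps ELP5, varied least of the 10, between 10.77 and 10.90 over the 4 arrays, followed by DSP, between 9.71 and 9.90.

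**Figure D1:**
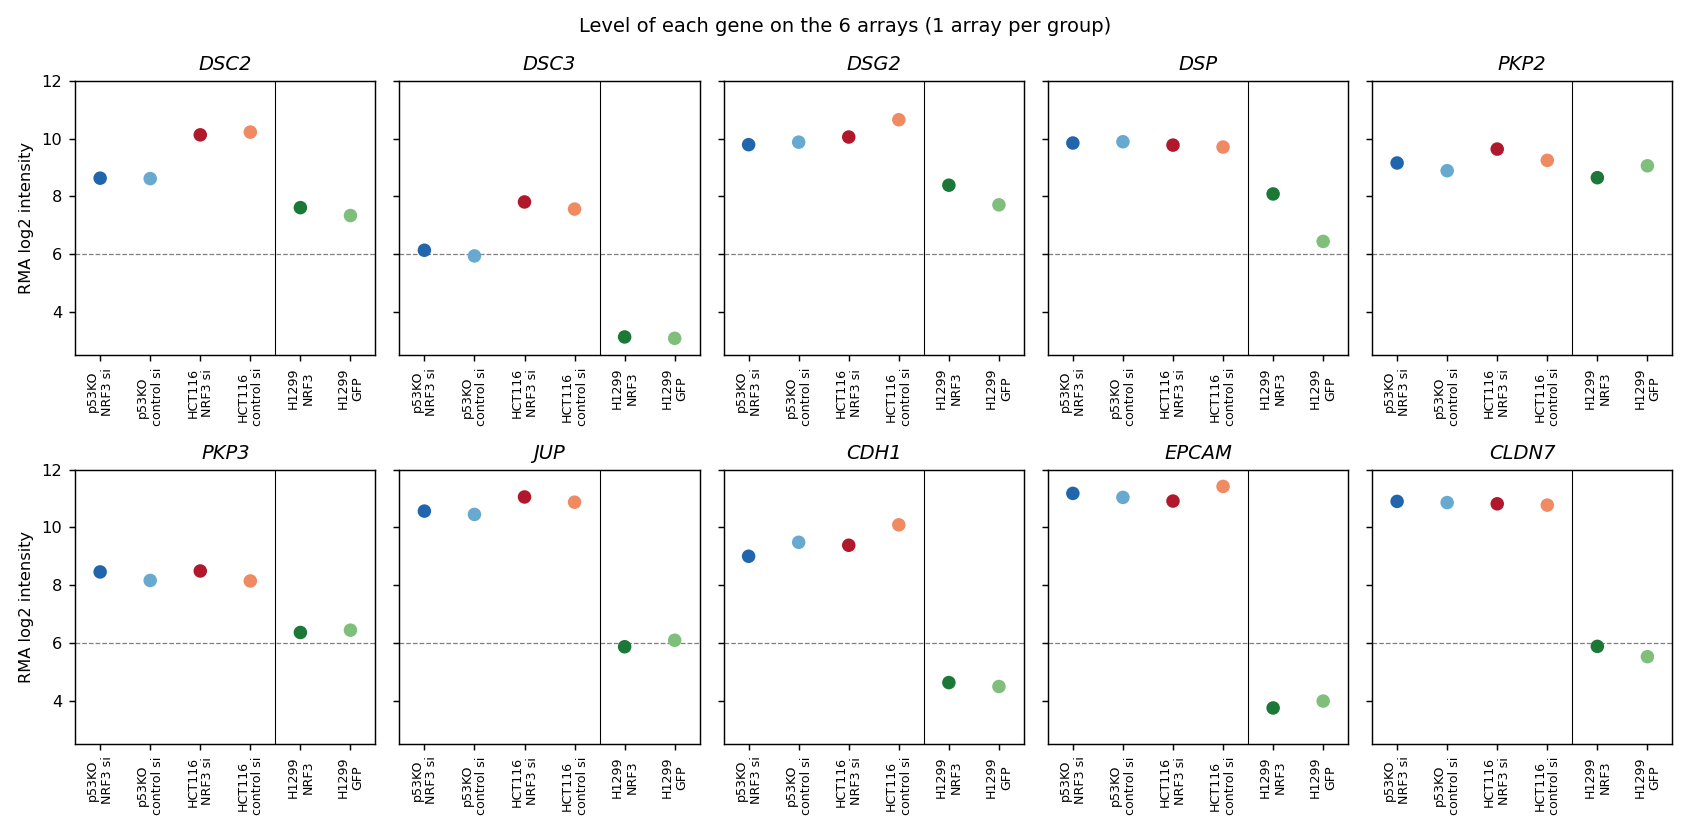
RMA log2 intensity (y axis) of each of the 10 genes on the 6 arrays (x axis; si, siRNA; p53KO, HCT116-p53KO), 1 point for each array, with a dashed line at 6 and a vertical line between the HCT116 family and H1299, whose scales may not match. DSC2 and DSC3 step down on both HCT116-p53KO arrays, and DSP differs between the 2 H1299 arrays (8.09 with NRF3 and 6.44 with GFP).

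The desmosomal cadherin genes form 1 cluster, so the neighbours of DSC2 and DSC3 were examined next. Between DSC3 and DSG2 lie DSC1, DSG1, DSG4 and DSG3, cadherins of stratified epithelia and hair, and all 4 were under 6 on every array. On the DSC3 side the nearest measured genes were CDH2, the N-cadherin gene, CHST9, AQP4-AS1, AQP4 and PCAT18. Of these only PCAT18, a long noncoding RNA, reached 6 in the HCT116 family, and it differed by -0.56 with NRF3 siRNA and -0.03 with control siRNA in HCT116-p53KO against HCT116. On the DSG2 side B4GALT6, a lactosylceramide synthase, differed by 0.24 and -0.13. TRAPPC8, a vesicle tethering factor, differed by 0.52 and 0.09, and RNF138, a ubiquitin ligase, by 0.54 and 0.10. The remaining pair on that side, TTR and SLC25A52, stayed under 6 in the HCT116 family. No neighbour was 2-fold lower in HCT116-p53KO. Antisense or noncoding genes overlap DSC2 (DSCAS), DSC3, DSG2 and DSP in RefSeq and had no named probe set, so their signals were not told apart from those of the members.

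**Figure D2:**
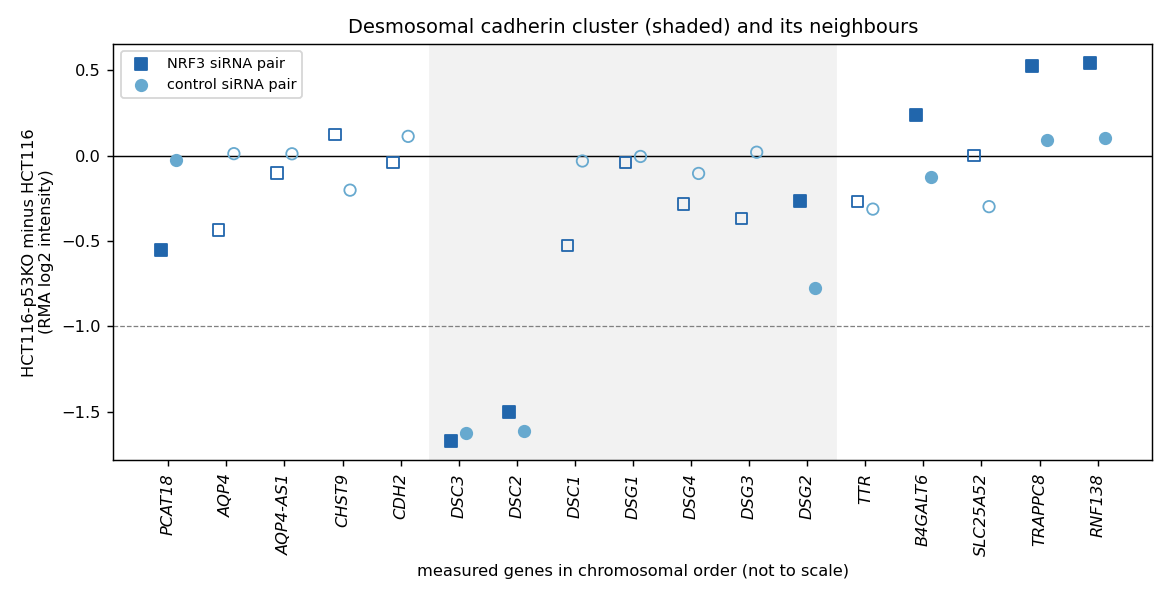
HCT116-p53KO minus HCT116 (y axis, RMA log2 intensity) for measured genes in their order on chromosome 18 (x axis, not to scale), with squares for the NRF3 siRNA pair and circles for the control siRNA pair. Open symbols mark genes under 6 on all 4 arrays, the shaded span is the cluster, and the dashed line is 2-fold; DSC3 and DSC2 lie between -1.67 and -1.502 and all other genes shown lie above -1.

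The patterns most like DSC2 and DSC3 over the 4 arrays were sought by the Euclidean distance of values centred on each gene's own mean, among 14148 genes. Nearest to DSC2 were LIF, a cytokine (distance 0.02), ARAF, a RAF kinase (0.12), PPARG, a nuclear receptor of lipid metabolism (0.13), SAMD12 (0.14) and ZNF266, a zinc finger gene (0.14). Nearest to DSC3 were ADGRF1, an adhesion receptor (0.07), FGF9, a growth factor (0.10), RGS2, a regulator of G protein signalling (0.13), MAN1A1, a Golgi mannosidase (0.17), and SATB1, a chromatin organizer (0.17). Since they were picked for likeness to genes that differ between the lines, their own difference between the lines is no further result. DSC3 was only the 16th nearest gene to DSC2, and DSC2 the 13th nearest to DSC3 (distance 0.29).

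Among other epithelial genes, EHF and KRT23 differed between the lines by more than the desmocollins. EHF, an epithelial ETS transcription factor, stood at 4.53 and 5.20 in HCT116-p53KO, against 9.35 and 8.84 in HCT116. KRT23, a type I keratin, differed by -2.34 with NRF3 siRNA and -2.57 with control siRNA. ELF3, another epithelial ETS factor, differed by -0.99 and -1.25. Others were higher in HCT116-p53KO: GRHL3, a grainyhead factor, differed by 0.20 and 0.70, and the keratin KRT80 by 0.34 and 0.95. The zinc finger factors KLF4 (-0.56 and -0.09) and KLF5 (-0.48 and 0.09) and the protease ST14 (0.10 and -0.34) differed less. Of 13 regulators 1 was 2-fold lower with NRF3 siRNA and 2 with control siRNA, beside 1.35% and 1.30% of all genes. Of 9 mesenchymal genes, SPARC, a matrix protein, was 2-fold lower with control siRNA (-1.98) and differed by -0.85 with NRF3 siRNA. The tight junction claudin CLDN4 differed by -1.35 and -0.82. In adherens junctions CDH3, P-cadherin, differed by -0.60 and -0.43. PERP, a desmosomal tetraspan protein that is also a p53 target, differed by -0.55 and -0.40.

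The second comparison asked how these genes stood after NRF3 knockdown. It shares arrays with the comparison of the lines, and each has its own values. CDH1 (chr16:68737292-68835537) was lower with NRF3 siRNA in both lines, at 9.001 against 9.48 with control siRNA in HCT116-p53KO and at 9.38 against 10.09 in HCT116. These are differences of -0.48 and -0.71, or 1.40-fold and 1.63-fold lower. CDH1 was the only member with both NRF3 siRNA arrays below both control siRNA arrays. PKP3 had both above, at 8.46 against 8.16 in HCT116-p53KO and at 8.49 against 8.14 in HCT116. The share of all genes separated in either way was not counted, so nothing is read from these separations. Fitted to the 4 arrays with the line as a block, limma found that CDH1 fell by 0.60 ± 0.16 (SE; adjusted p = 0.00482). CDH1 was the 1 of 10 members to pass, beside 5.43% of all genes that fell, and 0 members rose, beside 4.45% of all genes. The summed intensity of the 6 epithelial markers, CDH1 among them, was also lower. It stood at 13.65 against 14.12 on the log2 scale in HCT116-p53KO and at 14.1 against 14.58 in HCT116. KRT8 was the highest of the 6 on each of these arrays and so weighs most in the sum. All 6 were lower in HCT116, but EPCAM was higher in HCT116-p53KO (0.14). The part of this sum in the result for CDH1 was not tested. The lines are the only replicates, but the p does not measure how far they differed for CDH1. It sets the effect against 1 spread common to all genes, so the SE of 0.16 is the same for every gene. The call rests on a spread pooled over genes, since 2 arrays per siRNA left 1 residual degree of freedom: the adjusted p for CDH1 was 0.201 when the prior came from the 6-array fit, and 0.642 with the gene's own residual, and ranged from 0.000328 to 0.642 over the alternatives.

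None of the 10 genes reached 2-fold in either line after NRF3 siRNA. The background was 0.278% higher and 0.431% lower in HCT116-p53KO, and 0.221% higher and 1.03% lower in HCT116. At 1.5-fold, 0 members passed in HCT116-p53KO (background 3.63% higher and 2.38% lower), and in HCT116 CDH1 and DSG2 were lower (background 6.02%) and 0 were higher (background 2.71%). The median difference over the members was 0.08 in HCT116-p53KO and 0.06 in HCT116, beside 0.00 and 0.01 over all genes. For 7 of 10 members the lines shared the sign of the difference, 5 higher and 2 lower. The share of all genes with a shared sign was not counted, so nothing is read from this count. At an unadjusted p of 0.05 limma called 4 members, CDH1, DSG2, PKP2 and PKP3, beside 20.4% of all genes.

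Among the plaque proteins both plakophilins were higher in both lines. PKP2 (chr12:32790755-32896777) stood at 9.16 with NRF3 siRNA against 8.89 with control siRNA in HCT116-p53KO and at 9.64 against 9.25 in HCT116. PKP3 (chr11:392596-404908), the plakophilin found in most desmosomes, stood at 8.46 against 8.16 in HCT116-p53KO and at 8.49 against 8.14 in HCT116. Their limma estimates were 0.33 and 0.32, each ± 0.16 (SE), and neither passed the test (adjusted p = 0.219 and 0.239). JUP differed by 0.12 and 0.18 and DSP by -0.04 and 0.07, in the same order of lines.

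The cadherins of the desmosome differed in unlike ways. DSG2 stood at 9.79 with NRF3 siRNA against 9.88 with control siRNA in HCT116-p53KO and at 10.06 against 10.66 in HCT116, where it was thus 1.51-fold lower. Its limma estimate of -0.34 ± 0.16 (SE) had an adjusted p of 0.192. DSC3 differed by 0.20 in HCT116-p53KO and 0.25 in HCT116, and DSC2 by 0.01 and -0.09. EPCAM differed by 0.14 in HCT116-p53KO and -0.51 in HCT116. When the HCT116-p53KO difference was subtracted from the HCT116 one, the widest gaps among the members were -0.65 for EPCAM and -0.51 for DSG2. The pooled spread of the limma fit gives an SD of 0.32 for such a gap, which rests on 4 arrays, and with 1 array per group the gaps could not be tested.

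**Figure D3:**
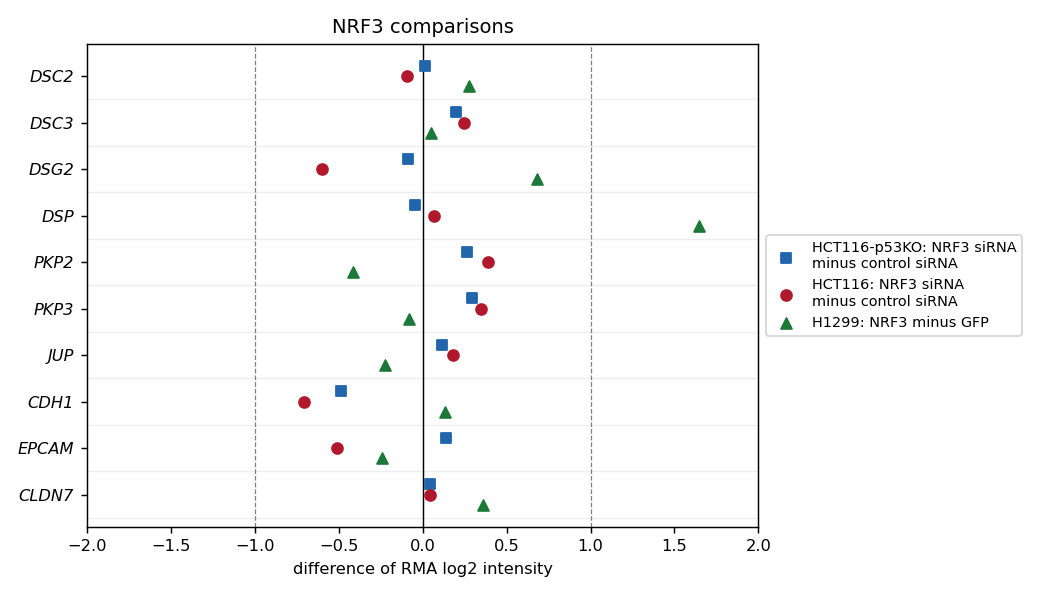
Differences of RMA log2 intensity (x axis) for each of the 10 genes (rows) after NRF3 siRNA in HCT116-p53KO (squares) and HCT116 (circles) and with the NRF3 plasmid in H1299 (triangles), 1 array per group, with dashed lines at 2-fold. CDH1 is lower in both siRNA comparisons (-0.48 and -0.71), PKP2 and PKP3 are higher in both, and the one value past 2-fold is DSP in H1299 (1.65).

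Genes of the same structures outside the 10 were called by limma in both directions over the same 4 arrays. Beside these calls, 4.45% of all genes rose and 5.43% fell. The lists, keratins and regulators included, were drawn up with earlier results of these data known. Their counts are therefore a description and no independent support. Of 5 other desmosomal genes tested, 2 rose: PERP by 0.77 ± 0.16 (SE; adjusted p = 9.52e-05) and PKP4, an armadillo protein related to plakophilins, by 0.61 ± 0.16 (adjusted p = 0.00372). PERP stood at 10.09 against 9.39 in HCT116-p53KO and at 10.64 against 9.79 in HCT116, with differences of 0.70 and 0.85. Of 9 adherens junction genes 1 rose, NECTIN3, an immunoglobulin-like adhesion protein, by 0.56 (adjusted p = 0.00902), and 0 fell. Of 13 tight junction genes 2 fell, CLDN12 by 1.02 (adjusted p = 6.14e-08) and CLDN4 by 0.51 (adjusted p = 0.0218), and 0 rose. The median over the other desmosomal genes was 0.36 in HCT116-p53KO and 0.52 in HCT116.

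Of 6 keratins of simple epithelium tested, beside 5.43% of all genes that fell and 4.45% that rose, 4 fell, KRT80 by 0.90, KRT8 by 0.62, KRT18 by 0.51 and KRT7 by 0.46 (adjusted p between 2.83e-06 and 0.0448), and KRT23 rose by 0.86. Their median difference was -0.46 in HCT116-p53KO and -0.48 in HCT116. KRT8 and KRT18, the paired filament keratins to which desmoplakin attaches, have many pseudogene copies, so their probe sets may share signal with them. Of 13 epithelial regulators ELF3 fell by 0.99 and GRHL3 by 0.70, and ESRP2, an epithelial splicing regulator, rose by 0.86. Of 9 mesenchymal genes 3 fell, SPARC by 0.76, SNAI2, the repressor SLUG, by 0.70 and AXL, a receptor kinase, by 0.52, and 0 rose. Of 9 p53 targets tested, which were listed as a check of the lines, SESN1, a stress-induced sestrin, rose by 0.54 (adjusted p = 0.0142), as did PERP above, and TP53INP1, a stress-response protein, fell by 1.14 (adjusted p = 7.64e-10). The fall of SPARC came mainly from HCT116 (-1.33, against -0.20 in HCT116-p53KO) and that of AXL from HCT116-p53KO (-0.86, against -0.17 in HCT116). With the prior of the 6-array fit limma called 0 genes in all, so each of these list calls was lost there, and each was lost with the gene's own residual. CLDN4, KRT7, SPARC, AXL and SESN1 were lost as well with quantile normalization repeated over the 6 arrays (adjusted p = 0.13, 0.0748, 0.114, 0.162 and 0.0679). CLDN4, KRT7, AXL and SESN1 were also lost without a filter (adjusted p = 0.0674, 0.079, 0.0781 and 0.051), and KRT7 with a trended robust prior (adjusted p = 0.0553).

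**Figure D4:**
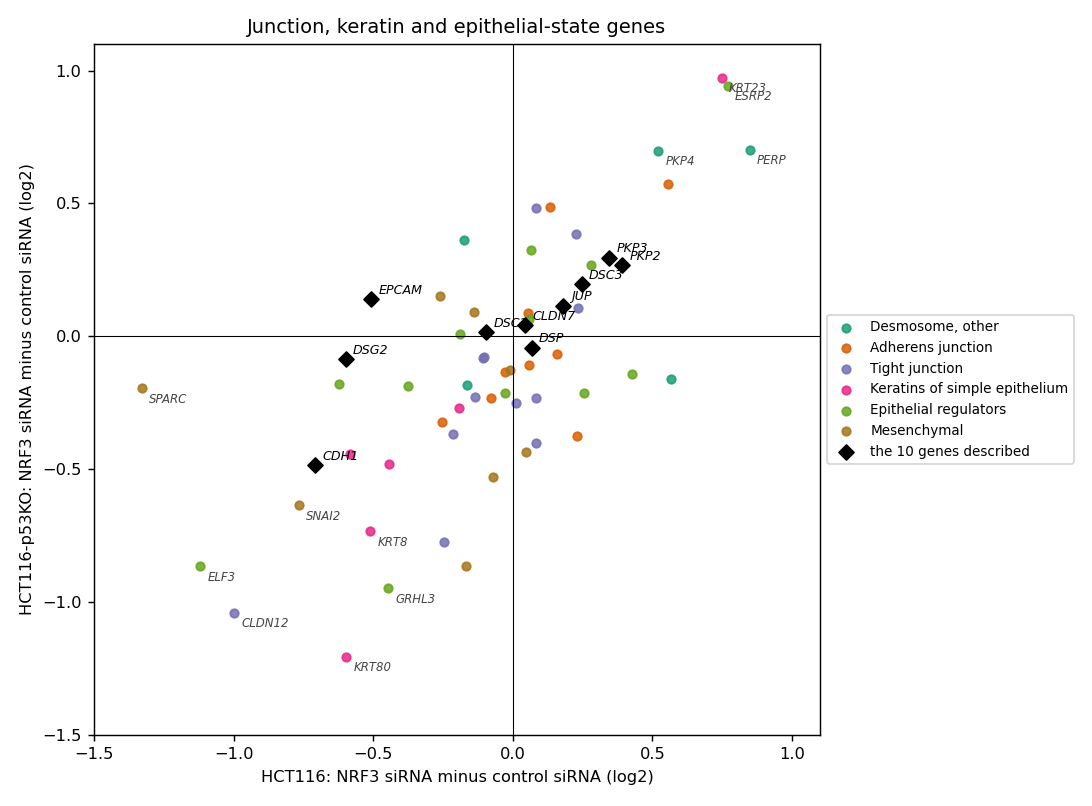
NRF3 siRNA minus control siRNA in HCT116 (x axis) and in HCT116-p53KO (y axis), both as differences of RMA log2 intensity, for the 10 genes (black diamonds) and for the other junction, keratin, regulator and mesenchymal genes (circles) at 6 or more on an array of each pair. CDH1 lies with KRT18 at lower left, and CLDN12 (-0.997 and -1.04) and ELF3 (-1.12 and -0.87) lie farther out in that direction.

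The third comparison set H1299 cells expressing NRF3 against those expressing GFP. Desmoplakin gave the largest difference of the family: DSP (chr6:7541671-7586714), the plaque protein that anchors keratin, stood at 8.09 with NRF3 and 6.44 with GFP, which is 3.13-fold higher. Of the 11304 genes at 6 or more on an array of this pair, 0.16% were as high or higher in difference. DSG2 stood at 8.39 with NRF3 and 7.71 with GFP, 1.60-fold higher, a difference that 3.05% of genes reached or passed. DSC2 stood at 7.61 and 7.34.

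Of the 6 members that passed the filter in H1299, 1 was 2-fold higher (background 0.681%) and 0 were 2-fold lower (background 1.14%). At 1.5-fold DSP and DSG2 were higher (background 4.82%) and 0 were lower (background 4.20%). PKP2 stood at 8.65 with NRF3 and 9.06 with GFP, PKP3 at 6.36 and 6.44, and JUP at 5.86 and 6.09. The other 4, DSC3, CDH1, EPCAM and CLDN7, were under 6 on both H1299 arrays, where CLDN7 stood at 5.88 with NRF3 and 5.52 with GFP and CDH1 at 4.62 and 4.49. EPCAM stood at 3.74 and 3.98 and DSC3 at 3.13 and 3.08.

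Since H1299 levels may lie on another scale, members were ranked within each array, as the percentile among all 18417 genes. For 9 of the 10 genes both H1299 ranks lay below all 4 ranks of the HCT116 family, beside 33.0% of all genes, and for 0 lay above them, beside 29.3%. EPCAM stood at percentile 5.84 with NRF3 and 7.99 with GFP in H1299, against 95.8 to 97.4 in the HCT116 family. CDH1 stood at 17.4 and 14.8, against 75.8 to 89.9, and JUP at 38.9 and 41.7, against 92.8 to 96.4. CLDN7 stood at 39.1 and 31.6, against 94.8 to 95.4, and DSC3 at 1.44 and 1.18, against 25.8 to 56.5.

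PKP2 was the exception to the order, at 84.2 with NRF3 and 89.3 with GFP in H1299, against 75.3 to 86.1 in the HCT116 family. DSC2 stood at 69.2 and 64.2, just under the HCT116-p53KO arrays (69.9 and 70.7) and far under the HCT116 arrays (90.8 and 91.1). DSP had the widest gap between the H1299 arrays, at 76.8 with NRF3 against 47.8 with GFP, and DSG2 stood at 80.9 against 71.1. PKP3 stood at 47.6 and 47.8, against 61.8 to 69.3 in the HCT116 family.

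**Figure D5:**
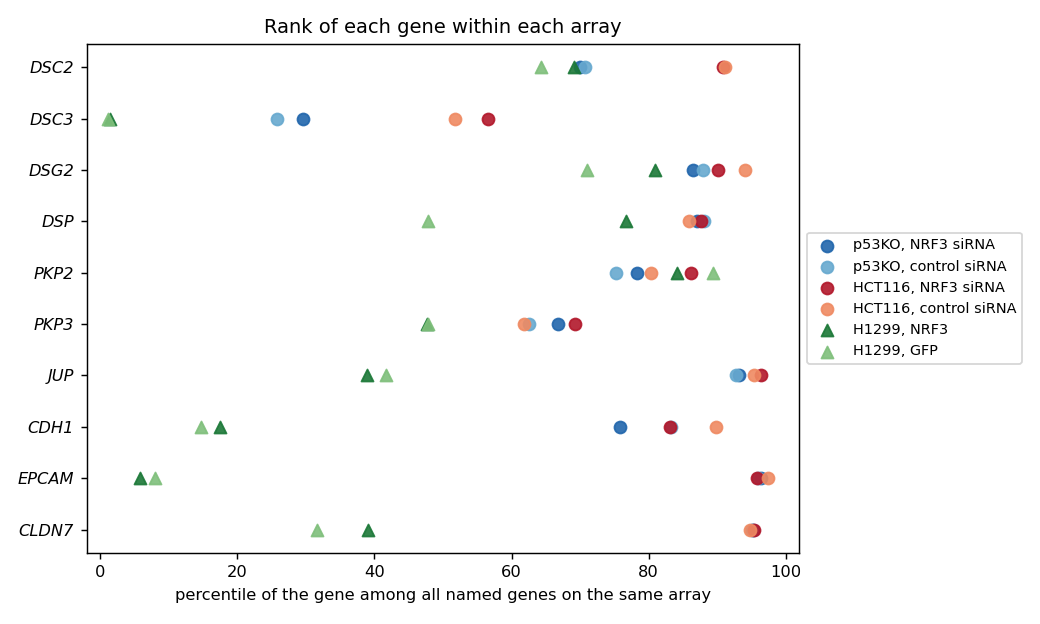
Percentile of each of the 10 genes (rows) among all named genes on the same array (x axis), with circles for the 4 HCT116-family arrays and triangles for the 2 H1299 arrays. EPCAM, CDH1, JUP and CLDN7 are far apart between the families, PKP2 overlaps, and DSP has the widest gap between the H1299 arrays (76.8 with NRF3 and 47.8 with GFP).

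Over all 3 lines, limma was fitted to more NRF3 minus less, which sets control siRNA against NRF3 siRNA and the NRF3 plasmid against GFP with cell line as a block. It called 0 of the 10 members at an adjusted p of 0.05 and 1 of 14492 genes, NFE2L3 itself, which is 0.00690%. At an unadjusted p of 0.05 it called 3 members, beside 11.1% of all genes. These were CDH1 at 0.44 ± 0.15, DSG2 at 0.46 ± 0.15 and PKP2 at -0.36 ± 0.12 (SE), with adjusted p of 0.37, 0.371 and 0.371. CDH1 and DSG2 were higher and PKP2 lower on the array with more NRF3 in all 3 lines, although CDH1 was under 6 in H1299. The members PKP3 and JUP, which were not called, were also lower on that array in all 3 lines. The share of all genes with the same sign in all 3 lines was not counted, so nothing is read from these signs. DSP, at 0.54 ± 0.30 (SE; adjusted p = 0.563), differed in H1299 and by less than 0.1 in the siRNA comparisons.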

How the data were processed

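The values used here are log2 intensities of 33297 probe sets on 6 Affymetrix whole-transcript arrays, deposited by the authors. Per the submitters' processing notes they were made with RMA in Expression Console, whose version is not named. RMA subtracts background, gives arrays 1 distribution by quantile normalization and combines probes. The sources used here do not give which arrays entered it together.

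Probe sets were named through the platform's annotation table: 19460 carried 1 symbol and 1754 several, while 12083 were not in the table. A gene took its probe set with the highest mean over the 6 arrays, which gave 18417 genes. All 10 members matched by symbol, and their Entrez numbers matched RefSeq on GRCh38.p14. Promoter sequences came from RefSeq, of which the 250 bases before each start were used. In 3088 of 3088 overlaps, windows of opposite strands were reverse complements of each other.

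Differences were taken for genes reaching 6 on at least 1 of the 2 arrays and counted at 2-fold. With limma 3.58.1 (R 4.3.3), the NRF3 siRNA effect was estimated over the 4 HCT116-family arrays, and more NRF3 minus less over all 6, cell line being a block in both, with two-sided p-values adjusted by Benjamini-Hochberg over all genes tested at 0.05. The fits were run on simulated data. For the 4-array fit every simulated gene had the same spread, so the simulation could not test the common spread on which its calls rest. Members and lists were chosen with earlier results of these data known. Beside the members, the genes named are NFE2L3, the listed genes called by limma, up to 4 of each list with the largest differences, the 5 genes nearest in pattern to DSC2 and to DSC3, and the measured genes of the desmosomal cadherin cluster with 5 on each side. Alternatives were other filters, a 1.5-fold threshold, averaging of probe sets, repeated quantile normalization, loess correction with a span of 0.4, other priors and leaving out each line. The gene deleted in HCT116-p53KO is not analysed here.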

Additional observations from a re-analysis of the deposited data

Results flagged for a closer look

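NECTIN4, an adhesion protein of adherens junctions that is not among the 10 genes, was singled out because its difference after NRF3 siRNA went in opposite directions in the HCT116 lines. It was -0.38 in HCT116-p53KO and 0.23 in HCT116, each beyond the pooled SD of 0.229 for a difference between 2 arrays, the second only narrowly. The levels of NECTIN4 on the HCT116-family arrays were 6.09 to 6.60, only just above the filter of 6. The difference between the lines was not tested, since each group had 1 array. The share of all genes with opposite signs past this SD was not counted, so nothing is read from NECTIN4 being singled out. Of the 10 genes, EPCAM, DSC2 and DSP also had opposite signs in the lines, but none of the 3 passed that SD in both.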

How the results depend on the processing

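The counts of members past 2-fold were the same in all 5 comparisons without a filter, with a filter of 7, with probe sets averaged, after repeated quantile normalization and after loess correction. At 1.5-fold, 2 members were lower after NRF3 siRNA in HCT116 (CDH1 and DSG2), 2 were higher in H1299 (DSP and DSG2) and 4 were lower in HCT116-p53KO with control siRNA. Member differences kept their sign in 47 of 50 cases after loess correction, 47 of 50 after repeated quantile normalization and 50 of 50 with probe sets averaged, and shifted by at most 0.181. The fit of NRF3 siRNA over 4 arrays called 0 members with the prior of the 6-array fit and 0 with each gene's own residual, and its calls over all genes numbered 0 and 3 there, against 1398. They numbered 859 after repeated quantile normalization, and the cause was not tested. For the fit over 6 arrays, 0 to 1 members were called when each line was left out, the 1 being CDH1 without H1299, which leaves the 4-array fit, and 0 genes in all were called after repeated quantile normalization. All genes at 2-fold after NRF3 siRNA in HCT116 split into 31 higher and 144 lower, and 47 and 117 after repeated quantile normalization. Both fits pair the arrays by cell line, as the block. The labels give no replicate numbers, so no other pairing was tried. Median ranks of the members over genes at 6 or more on any array were 28.1 with NRF3 and 29.8 with GFP in H1299, against 43.4 and 44.7 over all genes.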

Other observations

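In H1299, other junction genes also differed between the NRF3 and GFP arrays. CDH2, the N-cadherin of mesenchymal and neural cells, stood at 9.11 with NRF3 and 8.20 with GFP, and CLDN1, a tight junction claudin, at 9.18 and 8.26. TJP1, the ZO-1 scaffold, differed by 0.43, NECTIN1 by 0.48 and VCL, vinculin, by 0.39, while CLDN15 differed by -0.72 and NECTIN2 by -0.41. NECTIN1 lay near 6, at 6.02 with NRF3 and 5.54 with GFP. Past 2-fold in either direction were 0 of 8 adherens junction genes and 0 of 11 tight junction genes that passed the filter. KLF4, an epithelial zinc finger factor, was 2-fold higher (1.20), beside 0.681% of all genes, and KLF5 differed by 0.64. KLF4 stood at 7.17 with NRF3 and 5.97 with GFP, so the size of its difference is uncertain. Among mesenchymal genes FN1, fibronectin, differed by -0.77 and VIM, vimentin, by -0.37. These are single arrays of selected lines, with no replicate check.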
